A study of Mus musculus with 9 samples.

Results

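Of the 55487 genes in the deposited count table, 10 genes of calcium handling by the sarcoplasmic reticulum of muscle are described here. They are the calcium release channels Ryr1 and Ryr3, the calcium pumps Atp2a1 and Atp2a2, the pump regulators Sln and Pln, the calcium buffers Casq1, Casq2 and Pvalb, and the junction protein Jph1. The genes were listed by symbol and not by a cut on their values, though earlier results of these data were known. Each symbol matched 1 gene. RNA was sequenced from gastrocnemius, a calf muscle, of wild-type mice that the labels give as male C57BL/6, a strain the study names as C57BL/6J for this experiment, after selection of polyadenylated transcripts. The 4 Control mice lived in conventional cages. The 2 Unloading mice had spent 10 days with their hindquarters lifted by a line at the tail, so that the hindlimbs carried no load. The 3 Reloading mice had been freed from the line for 1 day after the same procedure. No age is given in the sources used here, and the methods section names females for the unloading procedure, whereas Xist had at most 5 counts and Ddx3y at least 1013 counts in every library. All mice carried the same genotype and received no agent, so the groups differed in hindlimb load and in the housing that goes with it. Whole powdered muscle was used, and fewer fibres of a kind and less RNA per fibre cannot be told apart in such bulk samples.

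In skeletal muscle, an action potential that enters the transverse tubules opens ryanodine receptors in the facing membrane of the sarcoplasmic reticulum, and the calcium that leaves the store starts contraction. Calcium pumps of the SERCA family then carry it back, calsequestrins hold it inside the store, and parvalbumin binds it in the cytosol of fast fibres, which speeds relaxation. Fast fibres use mainly the pump encoded by Atp2a1 and the calsequestrin encoded by Casq1, whereas slow fibres and heart use more Atp2a2, Casq2 and Pln.

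The libraries held from 9252443 to 19612101 counted read pairs. Levels are given as CPM, counts per 1000000 after trimmed-mean (TMM) scaling, and the 3 read pairs that a count of 0 allows corresponded to between 0.164 and 0.338 CPM, which covers counting error only. The 10 genes together took between 4.09% and 5.32% of all counts. TMM factors were 0.928 to 0.960 in Control and Unloading and 1.11 to 1.13 in Reloading, so that the composition of the Reloading libraries differed. Scaling by library totals alone moved the median log2 fold change of the 14851 tested genes to 0.27 when Reloading was set against Unloading and to 0.25 when it was set against Control, from 0.026 and 0.013 with TMM. The share of higher genes among those past the threshold became 82.8% in place of 49.3% in the first comparison and 80.2% in place of 50.9% in the second. Changes on Reloading are therefore relative to the bulk of genes, and for the 10 genes the value with library totals is given wherever it loses a call. Control 2 and Reloading 1 also held skin transcripts, where the keratin gene Krt2 had 1086 and 502 counts, and no more than 3 elsewhere.

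Transcripts of the fast-fibre calcium genes Pvalb, Atp2a1 and Casq1, and of Ryr1 and Jph1, were lower after 1 day of Reloading, and Atp2a1 was higher after 10 days of Unloading. Reloading had lower Pvalb (1.57-fold), Atp2a1 (1.56-fold), Jph1 (1.51-fold), Casq1 (1.31-fold) and Ryr1 (1.21-fold) than Unloading. Against Control, these genes and Casq2 were lower in Reloading, from 1.64-fold for Pvalb to 1.14-fold for Ryr1. Unloading had 1.26-fold more Atp2a1 than Control. Ryr3, Atp2a2 and Sln passed the threshold in none of the 3 comparisons, and Pln, with 0 to 11 counts per library, had too few counts to be tested.

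The test was edgeR's quasi-likelihood F-test in a single fit of all 9 libraries, with Benjamini-Hochberg adjustment over all tested genes and a threshold of 0.05. For Unloading against Control, 1 of the 9 tested genes was higher and 0 were lower, where 4.40% of all tested genes were called higher and 5.50% lower. For Reloading against Unloading, 0 were higher and 5 were lower, or 55.6% of the 9, where 18.5% of all tested genes were called higher and 19.0% lower. For Reloading against Control, 0 were higher and 6 were lower, or 66.7% of the 9, beside 22.1% of all tested genes called higher and 21.3% called lower. At an unadjusted p under 0.05, edgeR placed 2 genes lower on Unloading (Casq1 and Casq2) and 0 higher in either comparison of Reloading, and DESeq2 called 0 lower on Unloading and 0 higher on Reloading. The median log2 fold change of the 9 genes was 0.09, −0.39 and −0.30 in the 3 comparisons, in that order, beside −0.0038, 0.026 and 0.013 for all tested genes. With library totals in place of TMM, 3 of the 9 genes were lower in Reloading than in Unloading (Atp2a1, Jph1 and Pvalb) and 2 were lower than in Control (Casq1 and Pvalb). Under that scaling 6340 of 14851 tested genes were called against Unloading, 82.8% of them higher. Against Control 7512 were called, 80.2% of them higher. Each group enters 2 of the 3 comparisons, which are therefore not independent of each other. The labels do not say whether replicate libraries came from separate cages or days, and p-values measure only the spread between these libraries.

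**Figure D1:**
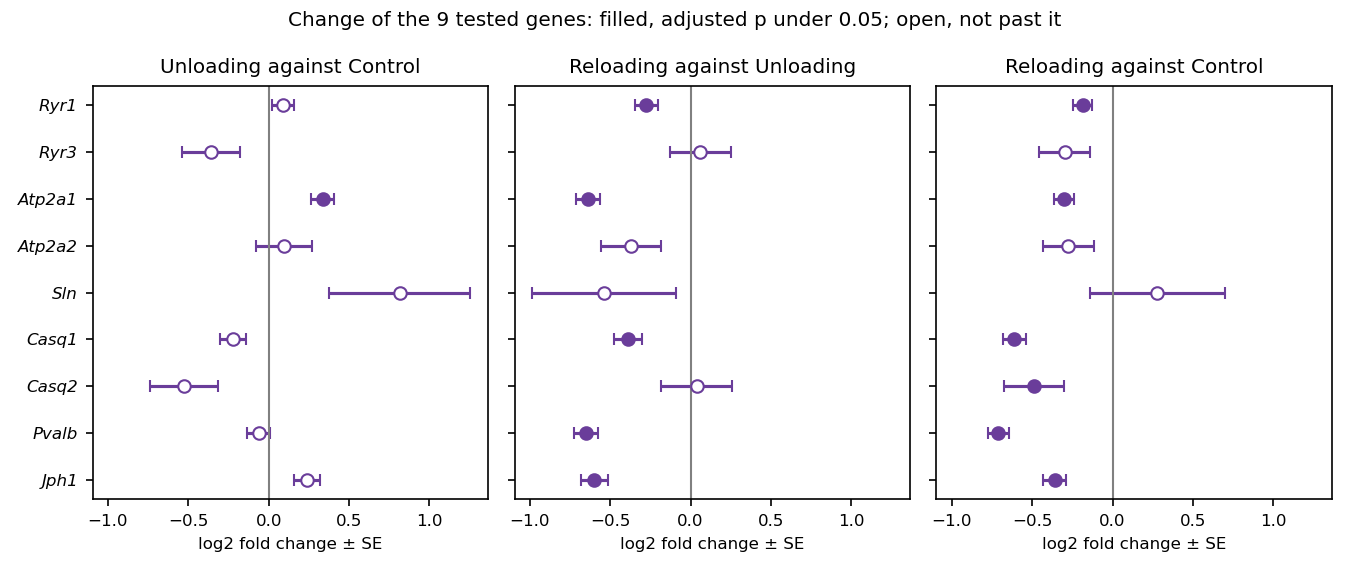
Log2 fold change (x axis, with its standard error as bars) of the 9 tested genes in the 3 comparisons, filled where the adjusted p was under 0.05. The 5 genes called for Reloading against Unloading and the 6 called for Reloading against Control all lie left of 0, and Atp2a1 is the filled point right of 0 for Unloading against Control.

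**Figure D2:**
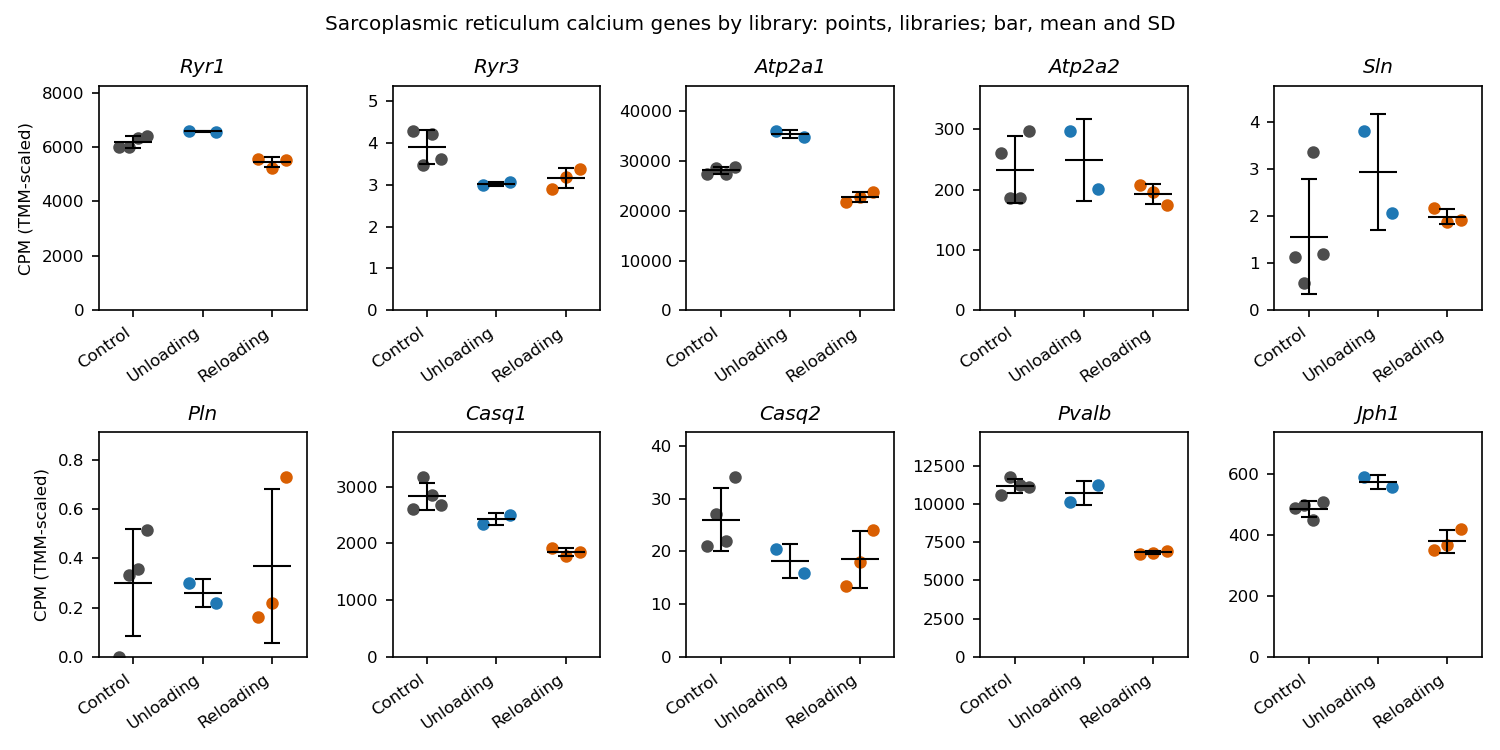
TMM-scaled CPM (y axis from 0, its own scale for each gene) of the 10 genes in each of the 9 libraries, with the mean and SD of each group as bars. The 3 Reloading libraries lie below all others for Ryr1, Atp2a1, Casq1, Pvalb and Jph1, whereas the groups overlap for Atp2a2, Sln and Pln.

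The 10 genes covered a wide range of levels. Per kilobase of summed exon length, Control held 10742 ± 447 CPM of Pvalb, 8090 ± 217 of Atp2a1, 1448 ± 126 of Casq1, 283 ± 9.89 of Ryr1 and 97.4 ± 5.37 of Jph1 (SD, n = 4 for each). Lower in the order came Atp2a2 at 38.3 ± 9.09, Casq2 at 9.52 ± 2.18, Sln at 1.19 ± 0.930, Ryr3 at 0.205 ± 0.0217 and Pln at 0.109 ± 0.0784 CPM per kilobase. Pvalb exceeded Atp2a1 by more than the spread in Control, but not in Unloading, where they stood at 10293 ± 757 and 10203 ± 245 CPM per kilobase (SD, n = 2), nor in Reloading, where they stood at 6562 ± 104 and 6559 ± 292 (SD, n = 3). Counting ignored strand and gave no pair to several genes, and 21.9% of the exon bases of Atp2a1 are shared with Rabep2 on the opposite strand. The full exon length was still the divisor. The Atp2a1 level per kilobase may therefore be too low, and its order against Pvalb in Control is uncertain. For Pln, 64.7% of the exon bases are shared with Cep85l and Gm47644 on the opposite strand, so its level is uncertain. The shared portion was 8.0% for Casq1 and below 5% for Ryr1, Ryr3, Atp2a2 and Jph1, and no base was shared for Casq2, Sln and Pvalb.

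Ryr1 encodes the calcium release channel of the skeletal muscle triad (GRCm38 chromosome 7, 29003344 to 29125179, minus strand). Its level was 5999.7, 5990.2, 6347 and 6389 CPM in Control 1 to Control 4, 6595 and 6571 in Unloading 1 and 2, and 5559, 5224 and 5519.7 in Reloading 1 to 3. The Reloading libraries lay below every other library, and the Unloading libraries lay above every Control library. For Reloading against Unloading, the log2 fold change was −0.28 ± 0.07 (SE, adjusted p 0.00672). With library totals it was −0.029 (adjusted p 0.745). Reloading against Control gave −0.19 ± 0.06 (adjusted p 0.0205), a call that was lost when Control 3 (adjusted p 0.0535), Control 4 (0.0577) or Reloading 2 (0.101) was left out and in a replicate block by title numbers (0.0795), and which turned to 0.054 with library totals (adjusted p 0.442). Unloading against Control gave 0.09 ± 0.07 (adjusted p 0.430), so the 2 higher Unloading libraries did not make a call.

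Ryr3 encodes another release channel, known from developing muscle and from diaphragm and soleus (chromosome 2, 112631355 to 113217096, minus strand). It stood at 4.29, 3.48, 4.22 and 3.60 CPM in Control, 2.99 and 3.06 in Unloading, and 2.90, 3.18 and 3.38 in Reloading, from 36 to 59 read pairs per library. Every Unloading and every Reloading library lay below the lowest Control library. The log2 fold change was −0.36 ± 0.18 for Unloading against Control (adjusted p 0.222) and −0.30 ± 0.16 for Reloading against Control (adjusted p 0.147), and neither passed the threshold. Reloading against Unloading gave 0.06 ± 0.19 (adjusted p 0.822). The coding sequences of Ryr1 and Ryr3 were identical at 68.7% of aligned bases, with a longest shared run of 30 bases.

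Atp2a1 encodes SERCA1, the pump of fast fibres (chromosome 7, 126445858 to 126463108, minus strand). In Control 1 to 4 its level was 27498, 28647, 27467 and 28903 CPM. Unloading 1 and 2 held 36077 and 34875 CPM, and Reloading 1 to 3 held 21828, 22727 and 23857 CPM. The 3 groups did not overlap, with Unloading highest and Reloading lowest. Unloading exceeded Control by 0.33 ± 0.07 on the log2 scale (1.26-fold, adjusted p 0.00767). Without Unloading 1 the difference was 0.31 and did not pass the threshold (adjusted p 0.108). Reloading lay below Unloading by a log2 fold change of −0.64 ± 0.07 (adjusted p 1.17e-05) and below Control by −0.30 ± 0.06 (adjusted p 0.00106). With library totals the first of these was −0.39 (adjusted p 2.95e-04) and the second was −0.063 (adjusted p 0.372).

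Atp2a2 encodes SERCA2, the pump of slow fibres and heart (chromosome 5, 122453513 to 122502225, minus strand). Its level was 261, 186, 187 and 297 CPM in Control, 297 and 201 in Unloading, and 207, 195 and 174 in Reloading. Control 1, Control 4 and Unloading 1 were high, and the other 6 libraries lay within 174 to 207 CPM. All 3 comparisons overlapped, and the log2 fold changes of 0.10 ± 0.18 for Unloading against Control (adjusted p 0.779), −0.37 ± 0.18 for Reloading against Unloading (adjusted p 0.130) and −0.27 ± 0.16 for Reloading against Control (adjusted p 0.174) did not pass. Reloading against Unloading passed without Unloading 2, when only Unloading 1 stood for its group (−0.64, adjusted p 0.0342), in a fit of only the 2 groups compared (adjusted p 0.0374) and without a low-count filter (−0.40, adjusted p 8.48e-05). Reloading against Control also passed without that filter (−0.26, adjusted p 0.00309).

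The libraries with high Atp2a2 also had high levels of some slow-fibre transcripts, though not of all. Myh7, the slow myosin heavy chain, stood at 245, 138, 131 and 278 CPM in Control, 277 and 157 in Unloading, and 152, 174 and 166 in Reloading. Tnnt1, the slow troponin T, stood at 112, 67.5, 68.5 and 119 CPM in Control, 120 and 71.0 in Unloading, and 41.4, 54.1 and 53.1 in Reloading. The summed level of 8 slow-fibre genes ranged from 654 to 1096 CPM in Control, from 520 to 877 in Unloading and from 412 to 516 in Reloading, and none of the 8 was at 0 in every library. In Control and Unloading the same 3 libraries led in Atp2a2, Myh7, Tnnt1 and Tpm3, and the last 3 were picked from the 8 after their values were seen. They also led there in Tnni1, Tnnc1 and Myh7b, but not in Myl3 and Myl2. Unloading 1 lay below every Control library for the myosin light chains Myl3 (85.1 CPM against 170 to 205) and Myl2 (84.6 against 105 to 173). The share of slow fibres in each piece of muscle was not measured, and its part in the level of Atp2a2 was not tested.

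**Figure D3:**
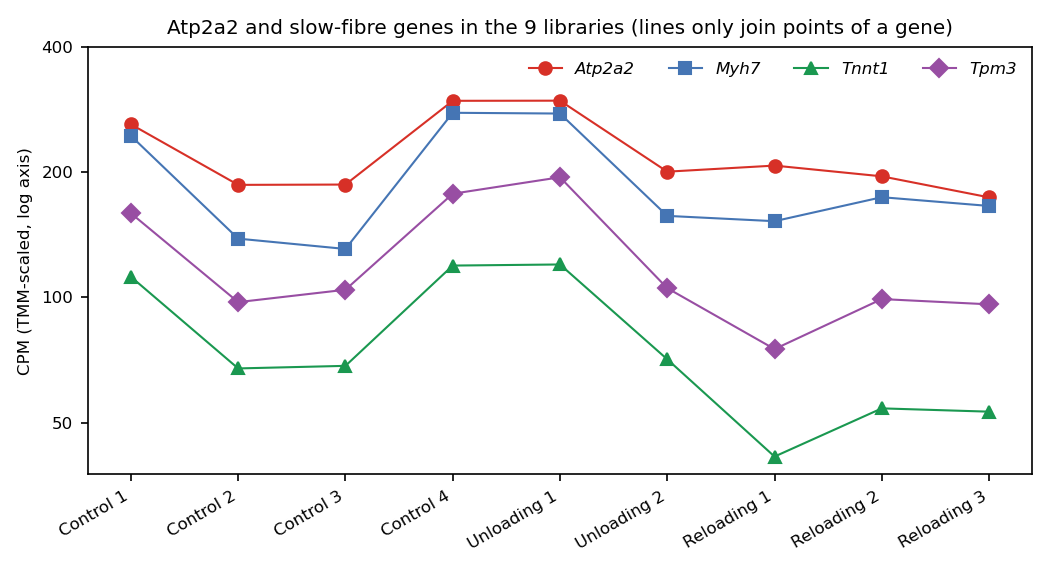
TMM-scaled CPM (y axis, log scale) of Atp2a2 and of the slow-fibre genes Myh7, Tnnt1 and Tpm3 in each of the 9 libraries (x axis). Control 1, Control 4 and Unloading 1 are the high libraries for all 4 genes, with 261, 297 and 297 CPM of Atp2a2. Myh7, Tnnt1 and Tpm3 were picked from 8 slow-fibre genes after their values were seen. Myl3 and Myl2, not plotted, were lower in Unloading 1 than in every Control library.

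Both pumps are held back by small membrane proteins, of which sarcolipin (Sln) and phospholamban (Pln) are in the list. Their open reading frames are shown whole, since each encodes a micropeptide, with 31 codons for Sln and 52 for Pln before the stop codon. They come from GENCODE M21 transcripts of build GRCm38, 5′ to 3′ in lower case:
Sln: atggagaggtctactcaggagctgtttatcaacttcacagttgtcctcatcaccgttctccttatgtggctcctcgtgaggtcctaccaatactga
Pln: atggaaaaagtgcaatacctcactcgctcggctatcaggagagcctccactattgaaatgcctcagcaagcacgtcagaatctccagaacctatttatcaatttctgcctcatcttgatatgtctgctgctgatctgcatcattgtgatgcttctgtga

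Both regulators were close to the limit of detection in this muscle. Sln (chromosome 9, 53850164 to 53854560, plus strand) had 10, 7, 47 and 14 read pairs in Control 1 to 4, 51 and 38 in Unloading 1 and 2, and 27, 26 and 29 in Reloading 1 to 3. On the CPM scale these were 1.13, 0.580, 3.36 and 1.20 in Control, 3.82 and 2.08 in Unloading, and 2.18, 1.88 and 1.92 in Reloading. Control 3 lay above Unloading 2 and above every Reloading library, so that the groups overlapped. The log2 fold changes were 0.81 ± 0.44 for Unloading against Control (adjusted p 0.259), 0.28 ± 0.42 for Reloading against Control (adjusted p 0.624) and −0.54 ± 0.45 for Reloading against Unloading (adjusted p 0.370). The first 2 of these depended on single libraries. Without Control 3, Unloading exceeded Control by 1.58 (adjusted p 0.0157) and Reloading exceeded Control by 1.04 (adjusted p 0.0243). Reloading against Control turned to −0.0234 without Control 2 and to −0.0816 without both libraries with skin transcripts. With every library kept, Unloading against Control passed without a low-count filter (0.84, adjusted p 0.0298).

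Pln (chromosome 10, 53337667 to 53345987, plus strand) had 0, 4, 5 and 6 read pairs in Control, 4 and 4 in Unloading, and 2, 3 and 11 in Reloading. Control 1 at 0 allows up to 0.338 CPM, and the 8 other libraries held 0.161 to 0.728 CPM. Reloading 3 was the highest library and Reloading 1 the lowest above 0, so that no order of the groups could be read. The micropeptides of the same family gave a fuller signal for myoregulin (Mrln), an inhibitor of the fast-fibre pump. Mrln fell from 42.2 and 60.5 CPM in Unloading to 20.1, 24.1 and 24.9 in Reloading (log2 fold change −1.16 ± 0.14, adjusted p 1.68e-05), and its Control libraries held 44.4 to 56.3 CPM (Reloading against Control, −1.10 ± 0.12, adjusted p 4.81e-06). Strit1, which encodes the pump activator DWORF, had at most 12 read pairs in any library and a log2 fold change of −1.73 ± 0.48 for Reloading against Control (adjusted p 0.00885). Strit1 passed the low-count filter in 7 of the 9 fits with 1 library left out, where this value ranged from −1.41 (without Reloading 3) to −2.43 (without Reloading 2). The third pump gene, Atp2a3, known from non-muscle cells, passed in none of the comparisons, with 29.0 to 44.4 CPM over the 9 libraries. Reloading against Unloading passed as higher with library totals (0.52, adjusted p 0.0136) and without both libraries with skin transcripts (0.37, adjusted p 0.0418). Unloading against Control passed as lower in a replicate block by title numbers (−0.39, adjusted p 0.0425).

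Casq1 encodes the calsequestrin of fast fibres, the main calcium-binding protein inside the store (chromosome 1, 172209894 to 172219868, minus strand). Its level was 2611, 3162, 2847 and 2680 CPM in Control, 2347 and 2500 in Unloading, and 1926, 1777 and 1847 in Reloading. The groups did not overlap, with Control highest and Reloading lowest. Reloading lay below Control by a log2 fold change of −0.61 ± 0.07 (1.53-fold, adjusted p 1.02e-05) and below Unloading by −0.39 ± 0.09 (adjusted p 0.00243). With library totals the second was −0.14 (adjusted p 0.183). Unloading against Control gave −0.22 ± 0.08 and did not pass (adjusted p 0.104), although both Unloading libraries lay below all 4 Control libraries.

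Casq2 encodes the calsequestrin of slow fibres and heart (chromosome 3, 102086415 to 102146514, plus strand). It stood at 21.0, 27.1, 22.1 and 34.1 CPM in Control, 20.5 and 16.0 in Unloading, and 13.5, 17.9 and 24.1 in Reloading. Control 4 was the highest library, and Reloading 3 lay above Control 1 and Control 3. Reloading against Control passed narrowly (−0.49 ± 0.18, adjusted p 0.0437), and the call was lost in 9 of 18 alternatives. These were without Control 2 (adjusted p 0.0608), Control 4 (0.148), Reloading 1 (0.197), Reloading 2 (0.116) or both libraries with skin transcripts (0.256), with library totals (−0.25, adjusted p 0.274), in a replicate block by title numbers (0.132), in a robust fit (0.165) and with DESeq2 (0.145). Unloading against Control gave −0.53 ± 0.21 (adjusted p 0.127), which passed without a low-count filter (−0.49, adjusted p 0.00132), and Reloading against Unloading 0.04 ± 0.22 (adjusted p 0.910). The coding sequences of Casq1 and Casq2 were identical at 68.0% of aligned bases, with a longest shared run of 25 bases.

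Pvalb encodes parvalbumin, the soluble calcium buffer of fast fibres (chromosome 15, 78191114 to 78206400, minus strand). In Control its level was 10610, 11742, 11253 and 11123 CPM. Unloading 1 and 2 held 10157 and 11272 CPM, within or just below the Control range, and Reloading 1 to 3 held 6756, 6782 and 6954 CPM, far below every other library. Reloading lay below Control by a log2 fold change of −0.71 ± 0.06 (1.64-fold, adjusted p 7.12e-07) and below Unloading by −0.65 ± 0.08 (1.57-fold, adjusted p 1.29e-05). Both calls held with library totals, at −0.47 and −0.40. Unloading against Control gave −0.06 ± 0.07 (adjusted p 0.638).

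Jph1 encodes junctophilin 1, which ties the sarcoplasmic reticulum to the transverse tubule (chromosome 1, 16964560 to 17097889, minus strand). Its level was 490.2, 498, 448 and 510.2 CPM in Control, 589.7 and 558 in Unloading, and 351, 366 and 420.2 in Reloading. The groups did not overlap, with the order Unloading, Control, Reloading, as for Atp2a1. Reloading lay below Unloading by −0.60 ± 0.09 (1.51-fold, adjusted p 8.87e-05) and below Control by −0.36 ± 0.07 (adjusted p 0.00106), and with library totals the second was −0.12 (adjusted p 0.165). Unloading against Control gave 0.24 ± 0.08 and missed the threshold (adjusted p 0.0790), while DESeq2 placed it past the threshold (adjusted p 0.0378). Jph2, the junctophilin shared with heart, was lower in Unloading than in Control (−0.32 ± 0.08, adjusted p 0.0160), at 991 and 1168 CPM against 1314 to 1405. This call was lost without Unloading 1 (−0.21). The Reloading libraries held 931 to 968 CPM of Jph2, also below every Control library. Over the 18 alternatives, its log2 fold change for Reloading against Control ranged from −0.54 to −0.28.

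The promoter sequences are shown for the called genes whose window held a match to a muscle motif, since these genes moved on Reloading. RefSeq windows of build GRCm38.p6 were at hand for 6 of the 10 genes (Ryr1, Atp2a1, Casq1, Casq2, Pln and Pvalb). The 250 bases before each start site were searched on both strands for CANNTG, the letters bound by myogenic basic helix-loop-helix factors, for CATTCC, and for the MEF2 and CArG motifs. CANNTG occurred in Atp2a1, Casq1, Casq2 and Pln and in 66.2% of all 32851 RefSeq windows, CATTCC in none of the 6 and in 12.6% of all windows, MEF2 in Casq2 and Pvalb and in 2.92% of all windows, and CArG in none of the 6 and in 1.47% of all windows. The window of Ryr1 held none of the 4 motifs. No MEF2 match overlapped a CANNTG match. A match describes letters in this window and is not a measured site. The last 200 bases before the start are printed 5′ to 3′ on the strand of the gene, with matches in capitals, from chr7:126463074-126463273 (minus) for Atp2a1, chr1:172219896-172220095 (minus) for Casq1, chr3:102086215-102086414 (plus) for Casq2 and chr15:78206401-78206600 (minus) for Pvalb:
Atp2a1: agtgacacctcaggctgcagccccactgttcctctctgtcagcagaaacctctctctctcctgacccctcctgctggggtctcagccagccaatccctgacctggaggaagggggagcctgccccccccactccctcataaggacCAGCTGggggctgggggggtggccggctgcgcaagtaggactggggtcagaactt
Casq1: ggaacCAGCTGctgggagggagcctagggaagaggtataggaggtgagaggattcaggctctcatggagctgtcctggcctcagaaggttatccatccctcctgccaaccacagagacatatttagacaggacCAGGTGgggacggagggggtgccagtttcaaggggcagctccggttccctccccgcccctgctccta
Casq2: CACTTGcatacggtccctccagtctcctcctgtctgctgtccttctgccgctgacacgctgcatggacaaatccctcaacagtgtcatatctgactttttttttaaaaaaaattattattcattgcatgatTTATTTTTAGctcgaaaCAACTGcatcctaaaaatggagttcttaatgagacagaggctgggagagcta
Pvalb: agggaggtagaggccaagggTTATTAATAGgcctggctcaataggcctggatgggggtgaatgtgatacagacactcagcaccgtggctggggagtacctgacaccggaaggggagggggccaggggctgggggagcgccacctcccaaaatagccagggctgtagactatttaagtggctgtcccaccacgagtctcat
Counted back from the start site, the capitals mark CANNTG from position −55 in Atp2a1, from −195 and −67 in Casq1 and from −200 and −52 in Casq2, and they mark the MEF2 match from −69 in Casq2 and from −180 in Pvalb.

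A ratio of a pair of genes within a library does not depend on how libraries are scaled. Atp2a2 made up 0.470% ± 0.107 (SD, n = 4) of the counts per kilobase of both pump genes in Control, 0.398% ± 0.0997 (n = 2) in Unloading and 0.482% ± 0.0630 (n = 3) in Reloading. Casq2 made up 0.657% ± 0.163 of the calsequestrin pair in Control, 0.537% ± 0.118 in Unloading and 0.712% ± 0.213 in Reloading. The libraries of the 3 groups overlapped in both of these shares. Ryr3 made up 0.0734% ± 0.00822 of the channel pair in Control, 0.0535% ± 0.000825 in Unloading and 0.0676% ± 0.00583 in Reloading, with both Unloading libraries below all 7 others. Of the 12 differences in log2 ratio, which include Pln over Sln, none passed an exact permutation test. The smallest p that the group sizes allow, two-sided, was 0.133 for Unloading against Control, 0.200 for the comparison of Reloading with Unloading and 0.0571 for that of Reloading with Control, so that no difference could have passed 0.05. Ryr3 over Ryr1 reached the smallest p in the first 2, with log2 differences of −0.45 and 0.34 (exact permutation p 0.133 and 0.200, and 0.800 after adjustment over the 12 tests). The pump ratio differed by −0.24, 0.29 and 0.05 (exact permutation p 0.533, 0.400 and 0.857) and the calsequestrin ratio by −0.28, 0.38 and 0.10 (exact permutation p 0.533, 0.400 and 0.686) in the 3 comparisons. For Pln over Sln the log2 differences were −0.96, 0.73 and −0.23 (exact permutation p 0.667, 0.400 and 0.857), which rest on 0 to 11 read pairs of Pln. The coding sequences of the pumps were identical at 75.2% of aligned bases, with a longest shared run of 44 bases.

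**Figure D4:**
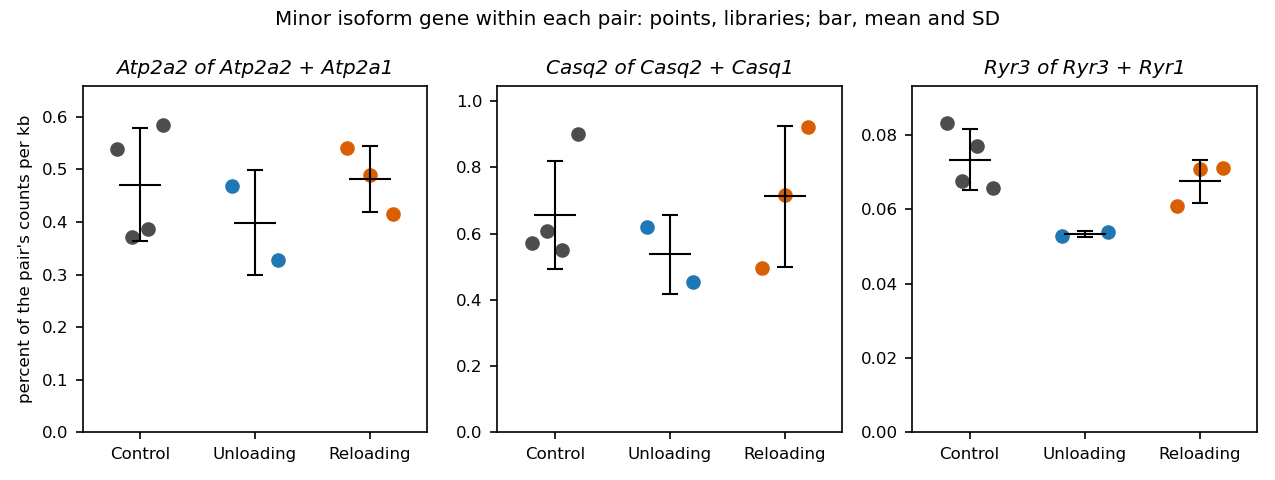
Share of the less abundant gene in the summed counts per kilobase of its pair (y axis, percent, from 0) in each library, with the mean and SD of each group as bars. Both Unloading libraries lie lowest for Ryr3, near 0.0535%, whereas the groups overlap for Atp2a2 and Casq2.

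The genes whose levels followed each of the 9 tested genes most closely were sought over all genes with a mean log2 CPM of at least 4, by Pearson's r of log2 CPM over the 9 libraries, which share the 3 groups and their scaling. Vdac1, the outer-membrane channel of mitochondria (r = 0.999), the fast troponin gene Tnni2 (0.994) and Ramp1 (0.994) lay closest to Pvalb, with Vdac1 at 1371 to 1546 CPM in Control and Unloading and 962 to 990.4 in Reloading. Arih2 (0.988), Rcsd1 (0.988) and R3hdm4 (0.985) lay closest to Atp2a1, and Pip4k2b (0.988), Metap2 (0.986) and Art3 (0.986) to Jph1. Gatd3a (0.988), Mcrs1 (0.988) and Aldh2 (0.987) lay closest to Casq1, and Tbc1d16 (0.981), Ccnt2 (0.975) and Norad (0.975) to Ryr1. For Atp2a2 they were Myh7 (0.932), Efr3a (0.902) and Ddx3x (0.897), and for Casq2 Mrps17 (0.915), Mbnl2 (0.892) and Myoz2 (0.855), of which Myh7 and Myoz2 are slow-fibre genes. For the thinly counted Ryr3 and Sln the closest were Smad3 (0.937), Oxnad1 (0.918) and Mrps23 (0.915), and Igfn1 (0.887), Dido1 (0.873) and Ash2l (0.861).

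Transcripts of fibre types and of other cells moved in the same comparisons. Of 9 fast-fibre genes, 7 were lower in Reloading than in Unloading, and their summed level was 98984 to 110340 CPM in Reloading against 145970 to 149260 in Unloading and 132910 to 145390 in Control. Of 6 muscle-fibre genes, 4 were lower, with a summed level of 97702 to 108360 CPM in Reloading against 134340 to 141380 in Unloading. This list shares Myh4 and Tnnt3 with the fast-fibre list. Myh4 alone held 63875 and 68083 CPM in Unloading and 48324 to 54973 in Reloading. Outside the fast-fibre list, every Reloading library lay below the Unloading libraries for Ckm, Mb and Des, and Acta1 overlapped. The slow-fibre list had 3 of 8 lower and 0 higher, with a median log2 fold change of −0.47, beside −0.59 for the fast-fibre list. In the other direction, 5 of 6 tested smooth muscle genes and 6 of 7 macrophage genes were higher in Reloading than in Unloading. Of all tested genes, 18.5% were called higher and 19.0% lower in this comparison. The summed smooth muscle level was 177 to 200 CPM in Reloading, 108 to 109 in Unloading and 120 to 146 in Control, and the summed macrophage level was 129 to 146, 59.5 to 59.9 and 56.5 to 69.1. No gene of these lists was at 0 in every library. The 5 calcium genes called lower in Reloading than in Unloading fell alongside transcripts of the fast-fibre list, the overlapping muscle-fibre list and some of the slow-fibre list. The part of fibre content in the change of these 5 genes was not tested. Without both libraries that held skin transcripts, 5 of the 9 calcium genes were still lower than in Unloading and 5 lower than in Control. Of 14765 genes tested there, 4628 were called against Unloading and 5082 against Control, 49.3% and 49.6% of them higher.

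Wider calcium handling was described with 82 genes in 7 lists, of which 77 were tested. For Unloading against Control, 3 were higher and 5 lower, or 3.90% and 6.49% of those tested, close to the 4.40% and 5.50% of all tested genes. For Reloading against Unloading, 12 were higher and 30 lower. Set against Control, 13 were higher and 36 lower in Reloading, with median log2 fold changes of −0.19 and −0.15. Lower genes were thus 39.0% and 46.8% of those tested, beside 19.0% and 21.3% of all tested genes, and higher genes were 15.6% and 16.9%, beside 18.5% and 22.1%.

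Many transcripts of the triad, where the tubule meets the reticulum, were lower on Reloading. Of 19 tested genes, 9 were lower and 2 higher in Reloading than in Unloading, and 12 lower and 1 higher than in Control. Lower genes were 47.4% and 63.2% of these, beside 19.0% and 21.3% of all tested genes. Higher genes were 10.5% and 5.26%, beside 18.5% and 22.1%. Trdn, which encodes triadin, the anchor of calsequestrin at the release channel, stood at 1830 to 2293 CPM in Control, 2434 to 2683 in Unloading and 905 to 1162 in Reloading. Its log2 fold change was −1.29 ± 0.12 against Unloading (adjusted p 1.57e-06) and −0.98 ± 0.10 against Control (adjusted p 2.76e-06). Cacna2d1, an auxiliary subunit of the voltage sensor, fell by 1.00 against Unloading and by 0.78 against Control. Dysf, a membrane repair protein, was 1.98-fold and 2.11-fold higher (log2 fold change 0.99 ± 0.08 and 1.08 ± 0.07), and Cav3, a caveolin of the muscle membrane, was higher than in Unloading (0.40 ± 0.09, adjusted p 0.00336), though not past the threshold without Unloading 1 (adjusted p 0.0624). On Unloading, Cacng1, the gamma subunit of the voltage sensor, was higher (0.44 ± 0.07, adjusted p 0.00196), and Sypl2, a triad protein also called mitsugumin 29, was lower (−0.67 ± 0.09, adjusted p 8.61e-04).

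Among 11 tested regulators of the release channel, edgeR made 0 calls on Unloading, also at an unadjusted p under 0.05, and DESeq2 made 0. On Reloading, 6 were lower and 1 higher against Unloading, and 5 lower and 1 higher against Control. Lower genes were 54.5% and 45.5% of the 11, beside 19.0% and 21.3% of all tested genes. Higher genes were 9.09% in both, beside 18.5% and 22.1%. The calmodulin genes Calm2 (−0.51 ± 0.08 against Unloading, −0.59 ± 0.07 against Control) and Calm3 (−0.48 ± 0.08 against Unloading) and S100a1 (−0.54 ± 0.07 against Control), whose product binds the channel, fell, and the kinase gene Camk2d rose (0.57 ± 0.09 and 0.50 ± 0.08). Ryr2, the release channel of heart, had 8 to 28 read pairs per library and passed in none of the comparisons.

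Transcripts for proteins of the reticulum lumen moved in both directions. The chaperone and calcium binder Calr, which encodes calreticulin, stood at 128 to 143 CPM in Control, 134 and 138 in Unloading and 202 to 262 in Reloading, a log2 fold change of 0.73 ± 0.10 against Unloading (adjusted p 7.23e-05) and 0.73 ± 0.08 against Control. Calu, which encodes calumenin (0.70 ± 0.08 against Unloading), and Selenon (0.60 ± 0.14 against Control) also rose. The muscle-specific Hrc, which encodes the histidine-rich calcium-binding protein, fell by 0.38 against Unloading and by 0.40 against Control, and Sdf4 fell by 0.25 against Unloading. Against Unloading, the Hrc call was lost with library totals (−0.13, adjusted p 0.135), and the Sdf4 call was also lost without Unloading 1 (adjusted p 0.0879), Unloading 2 (0.0552), Reloading 1 (0.0650) or Reloading 2 (0.0515). Srl, which encodes sarcalumenin, was lower in Unloading than in Control (−0.23 ± 0.07, adjusted p 0.0416), a call that was lost in 11 of 18 alternatives, with the highest adjusted p, 0.277, without Unloading 1.

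Of 14 tested genes of store refilling, calcium export and exchange, 2 were higher and 5 lower in Reloading than in Unloading. These were 14.3% and 35.7% of the 14, beside 18.5% and 19.0% of all tested genes. Slc8a1 and Slc8a3, the sodium-calcium exchangers, rose on Unloading (0.73 ± 0.11 and 0.36 ± 0.10) and were lower in Reloading than in Unloading (−0.80 ± 0.12 and −0.70 ± 0.10). Slc8a1 stood at 16.2 to 20.4 CPM in Control, 29.8 and 31.0 in Unloading and 14.7 to 19.0 in Reloading, so that Reloading overlapped Control. The Unloading call of Slc8a3 was lost in 6 of 18 alternatives, with the highest adjusted p, 0.175, without Unloading 1. Against Control, Reloading had higher Itpr3 (0.61 ± 0.15), an inositol trisphosphate receptor, and Atp2b4 (0.67 ± 0.12), a plasma membrane calcium pump, and lower Orai3 (−0.45 ± 0.11) and Atp2b3 (−0.39 ± 0.11). The calls of Orai3 and Atp2b3 were lost with library totals (−0.21, adjusted p 0.120, and −0.15, adjusted p 0.305), and that of Atp2b3 also without Reloading 3 (adjusted p 0.0663). Among 9 genes of mitochondrial calcium uptake, Mcu, the channel itself, exceeded Unloading 1.26-fold in Reloading, and its partners Micu3 (−0.83 ± 0.13) and Mcur1 (−0.24 ± 0.08) were lower. Set against Control, 1 of the 9 was higher and 5 were lower in Reloading. These were 11.1% and 55.6%, beside 22.1% and 21.3% of all tested genes. Against Unloading, the 1 higher and 2 lower genes were 11.1% and 22.2% of the 9, beside 18.5% and 19.0% of all tested genes. The Mcu call was lost without Unloading 1 (adjusted p 0.0577) or Unloading 2 (0.0591), and that of Mcur1 without Unloading 1 (0.125), Unloading 2 (0.0760), Reloading 1 (0.104) or Reloading 2 (0.0827).

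Calcineurin is the phosphatase that calcium and calmodulin switch on, and its target NFAT and its regulators were measured as a list of 14. Rcan1, an inhibitor of calcineurin and itself a known NFAT target, stood at 75.8 to 94.0 CPM in Control, 73.7 and 100.3 in Unloading and 489.7, 470.3 and 352 in Reloading. This was 5.02-fold above Unloading (log2 fold change 2.33 ± 0.16, adjusted p 7.09e-08) and 5.35-fold above Control. Nfatc2 was higher (0.53 ± 0.13 against Unloading, lost without Unloading 1 at an adjusted p of 0.0797, and 0.71 ± 0.11 against Control), whereas Ppp3cb, a catalytic subunit, and Myoz1, a calcineurin-binding protein of fast fibres, were lower than in Unloading (−0.61 ± 0.09 and −0.67 ± 0.08). Myoz2, its slow-fibre relative, was lower than in Control (−0.71 ± 0.15). Rcan2 was lower in Unloading than in Control (−0.63 ± 0.11, adjusted p 0.00430), which did not hold without Unloading 1 (−0.40, adjusted p 0.0999), and lower again in Reloading (−1.04 ± 0.10 against Control). The whole list had 3 higher and 5 lower in Reloading than in Unloading, and 5 higher and 5 lower than in Control. Against Unloading these were 21.4% and 35.7% of the list, beside 18.5% and 19.0% of all tested genes. Against Control they were 35.7% each, beside 22.1% and 21.3%.

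**Figure D5:**
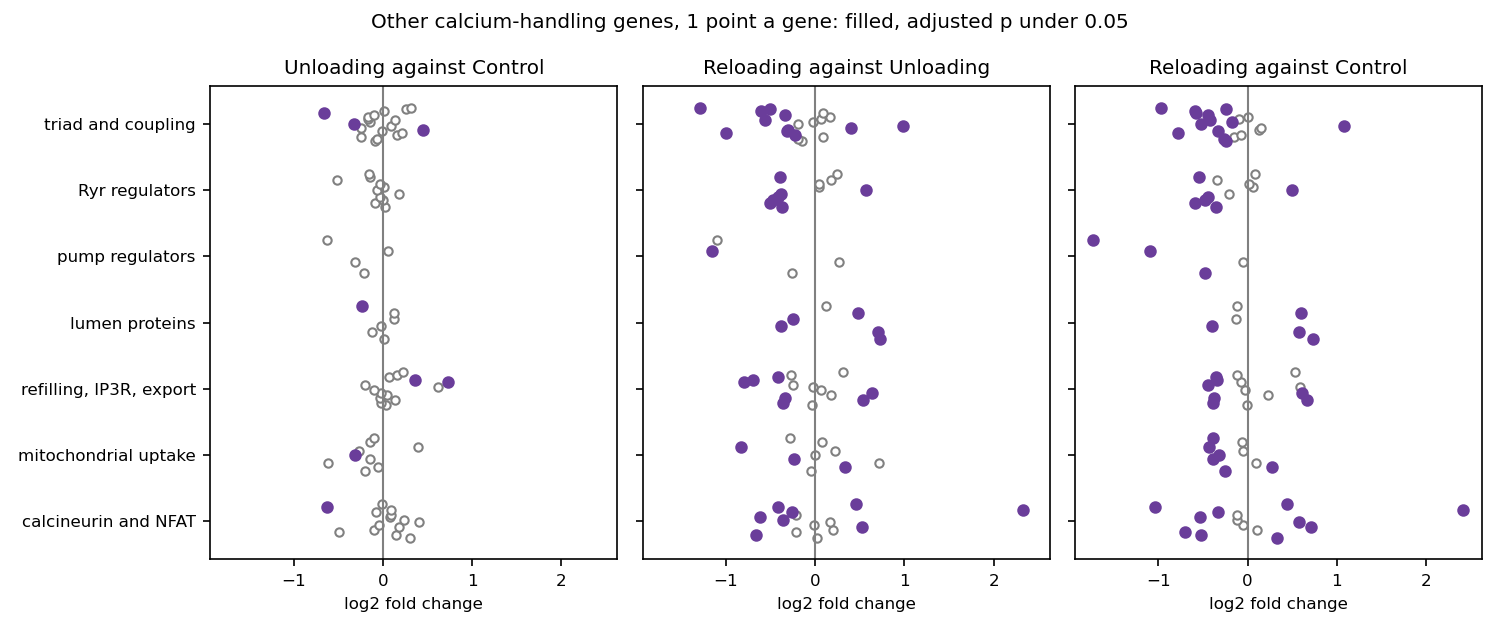
Log2 fold change (x axis) of the 77 other tested calcium-handling genes, 1 point for each gene, by list and comparison, filled where the adjusted p was under 0.05. On Reloading most filled points lie left of 0, with Trdn, Cacna2d1 and Mrln farthest left against Unloading and Rcan1 alone beyond 2 on the right.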

How the data were processed

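Polyadenylated RNA of 9 gastrocnemius muscles was sequenced. The study's methods describe single reads, whereas the header of the deposited table counts read pairs. Per the submitters' processing notes, reads were aligned with STAR 2.7.3a to GRCm38.p6. The authors ran featureCounts 2.0.3 on read pairs, unstranded and without giving a pair to several genes, against Ensembl release 102, and deposited raw counts with the summed exon length of each gene. The authors' DESeq2 tables hold fold changes, p-values and means and were used here only for gene symbols.

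Tests on the counts used edgeR 4.0.16 (R 4.3.3) after filterByExpr (minimum count 10, minimum total 15), TMM scaling and a single quasi-likelihood fit of 9 libraries with the group as its term. P-values were two-sided and adjusted within each comparison (Benjamini-Hochberg), and standard errors were derived from the F statistic. The common biological coefficient of variation was 0.0927, and the fit was tested on simulated counts. Ratios of pairs used counts per kilobase with 0.5 added to both counts, and an exact permutation test of the group means. Alternatives were DESeq2 1.42.0 with its size factors, library totals, no filter, a robust fit, replicate blocks and libraries left out.

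The 10 genes and all other lists were chosen with earlier results of these data known. Besides the 10 genes, those named are, for each list and comparison, at most the 2 higher and 2 lower with the largest log2 fold change past the threshold, the related genes Ryr2, Atp2a3, Jph2, Strit1 and Mrln, the fibre-type and cell markers, and the 3 genes closest in level to each of the 9 tested genes.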

Additional observations from a re-analysis of the deposited data

How the results depend on the processing

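Over 18 alternatives, the 27 log2 fold changes of the 9 tested genes gave 486 values, of which 447 kept their direction and their side of the threshold, 18 lost a call, 11 gained one and 10 changed direction. Calls of Pvalb, Atp2a1 and Jph1 for Reloading against Unloading, and of Pvalb and Casq1 for Reloading against Control, held in all 18. Scaling by library totals left 3 genes called for Reloading against Unloading, beside 6340 of 14851 tested genes. For Reloading against Control it left 2, beside 7512. The same scaling turned the log2 fold change of Ryr1 against Control to 0.0539 and that of Atp2a3 against Control to 0.1933. Those of Jph2, Mcur1 and Sdf4 against Unloading turned to 0.0545, 0.0056 and 0.0026. For Unloading against Control, 4 of the 10 genes were called without a filter, 3 of them higher, beside 2022 of 34376 tested genes. With DESeq2, 2 were called, all higher, beside 1315 of 34376. DESeq2 also turned Casq2 against Unloading to −0.0025.

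With 1 library left out, the genes called ranged from 0 (without Unloading 1) to 2 (without Control 3) for Unloading against Control, where the other calcium-handling genes called ranged from 3 to 9 and all genes called from 121 (without Unloading 1) to 1518. Without Control 3 the last was 949. The log2 fold change then ranged from −0.2096 to 0.3522 for Atp2a2, from −0.1396 to 0.0147 for Pvalb and from −0.2302 to 0.2929 for Mrln on Unloading against Control, from −0.2016 to 0.2171 for Casq2 and from −0.2419 to 0.9274 for Ryr2 on Reloading against Unloading, and from −0.0234 to 1.042 for Sln and from −0.1745 to 0.0646 for Atp2a3 on Reloading against Control. The ratio of Atp2a2 over Atp2a1 ranged from −0.4946 to 0.0236 for Unloading against Control and from −0.0507 to 0.1688 for Reloading against Control, where Casq2 over Casq1 ranged from −0.1109 to 0.3383 and Pln over Sln from −0.9114 to 0.3071. Without both libraries that held skin transcripts, Reloading against Control gave −0.0816 for Sln, 0.1446 for Atp2a3, −0.1384 for Atp2a2 over Atp2a1 and 0.7469 for Pln over Sln. The cause of these changes was not tested.

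Library titles and descriptions number the Reloading mice differently, and the correlation of deviations between same-numbered libraries was over 0.1 in 2 of 7 pairs by title (−0.207 to 0.317) and in 5 of 6 by description (−0.027 to 0.317). Since it was not so in every pair, the numbers were not taken as pairs. Control 2 and Reloading 1, which held skin transcripts, share description number 2, and Unloading 2, with the same number, had 0 counts of Krt2. Whether the numbers mark a shared origin of libraries was not tested. With a replicate block by description numbers, 2 of the 9 genes were called for Unloading against Control (Atp2a1 and Jph1), beside 1479 of 14851 tested genes. Casq2 against Unloading then turned to −0.1975. With a replicate block by title numbers, 4 of the 9 were called for Reloading against Control, beside 5705 of 14851 tested genes. Ryr1 and Casq2 were then not past the threshold (adjusted p 0.0795 and 0.132), and Casq2 against Unloading turned to −0.0719. Depth limits Pln, Sln, Ryr3 and Strit1, which had at most 59 read pairs in any library.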
